A study of Mus musculus with 47 samples.

Results

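The 10 genes described here encode the pore-forming subunits of the AMPA receptor (Gria1, Gria2, Gria3 and Gria4) and the NMDA receptor (Grin1, Grin2a, Grin2b, Grin2c, Grin2d and Grin3a). They were found by gene symbol and Ensembl identifier among the 55416 genes of the male and the female count tables, and each of the 10 passed the filter on low counts in both sexes. The RNA came from brains of homozygous 3xTg mice, a model of Alzheimer's disease, and every group, Control included, carries human APP and tau transgenes and an altered presenilin gene. Mice were fed a Control diet of defined amino acids or a diet restricted in isoleucine (IleR), leucine (LeuR) or valine (ValR), from 6 months of age for 9 months, so that brains were collected at about 15 months. Of the 47 libraries in the labels 37 were analysed, which in males fell into 4 on Control, 3 on IleR, 3 on LeuR and 4 on ValR, and in females into 6 on Control, 5 on IleR, 6 on LeuR and 6 on ValR. No wild-type group was analysed here, so the values describe diets within 3xTg mice.

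AMPA receptors carry most of the fast excitatory current at brain synapses and assemble as tetramers of the Gria products, GluA1 to GluA4. An edited GluA2 subunit keeps calcium from passing through the channel. NMDA receptors need the obligate GluN1 subunit, from Grin1, together with GluN2 or GluN3 subunits, and admit calcium when glutamate, a co-agonist and depolarization coincide. The GluN2 genes differ by region: Grin2a and Grin2b are expressed strongly in cortex and hippocampus, Grin2c in cerebellar granule cells and Grin2d in the brainstem, diencephalon and scattered interneurons. Gria4 is likewise abundant in the cerebellum. Such receptors have long been studied in Alzheimer's disease because synaptic glutamate signalling is disturbed in it.

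The promoters of 2 genes that rose in IleR-fed and ValR-fed males (Grin2c and Gria4) and of 2 that fell (Gria2 and Grin1) are printed to show what sequence lies upstream of genes that moved in opposite directions. Each runs from 250 bases before to 50 bases after the RefSeq start in build GRCm38.p6, read on the minus strand, and Grin2d was the fifth member with an entry in that table. They lie at chr11:115267194-115267493, chr9:4796185-4796484, chr3:80802786-80803085 and chr2:25319138-25319437, in the same order. Capitals mark a GC box (GGGCGG) in Grin2c and Grin1, and in Gria2 the core of an RE1 element, the site at which the repressor REST binds neuronal genes in non-neuronal cells.
Grin2c promoter: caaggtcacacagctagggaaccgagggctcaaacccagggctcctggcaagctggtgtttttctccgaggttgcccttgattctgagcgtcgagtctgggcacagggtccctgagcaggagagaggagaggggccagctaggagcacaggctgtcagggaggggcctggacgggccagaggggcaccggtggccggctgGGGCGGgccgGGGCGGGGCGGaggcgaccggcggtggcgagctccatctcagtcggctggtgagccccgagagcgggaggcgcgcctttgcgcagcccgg
Gria4 promoter: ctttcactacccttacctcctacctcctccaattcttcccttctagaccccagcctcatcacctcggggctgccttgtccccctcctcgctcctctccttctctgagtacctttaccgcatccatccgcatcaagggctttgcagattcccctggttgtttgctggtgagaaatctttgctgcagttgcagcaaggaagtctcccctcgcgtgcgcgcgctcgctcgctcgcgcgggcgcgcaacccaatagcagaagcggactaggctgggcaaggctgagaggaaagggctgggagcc
Gria2 promoter: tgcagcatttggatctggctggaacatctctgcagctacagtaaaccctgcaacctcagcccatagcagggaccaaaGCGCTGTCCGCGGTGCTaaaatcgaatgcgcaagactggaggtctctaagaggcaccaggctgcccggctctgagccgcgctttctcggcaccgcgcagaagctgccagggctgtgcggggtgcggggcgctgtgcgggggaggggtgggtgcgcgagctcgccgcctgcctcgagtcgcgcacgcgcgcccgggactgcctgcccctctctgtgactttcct
Grin1 promoter: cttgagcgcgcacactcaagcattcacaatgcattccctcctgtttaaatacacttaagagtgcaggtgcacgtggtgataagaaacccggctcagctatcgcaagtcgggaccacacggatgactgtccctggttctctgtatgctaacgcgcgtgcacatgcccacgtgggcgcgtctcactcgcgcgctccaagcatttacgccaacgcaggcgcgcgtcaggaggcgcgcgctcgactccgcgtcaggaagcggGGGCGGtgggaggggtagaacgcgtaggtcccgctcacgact

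The GC box, the RE1 core and the half-site of nuclear factor I (TTGGC) were searched on both strands. The Grin2c promoter held 3 GC boxes, starting at -50, -40 and -35 from the start, of which the last pair overlaps by a single base, and the Grin1 promoter held 1 at 9 bases after it, while Gria4, Gria2 and Grin2d held none; 35.7% of the 32851 promoters in the table held at least 1. The Gria2 promoter held the RE1 core at -173, a core found in 5 promoters of the table (0.0152%). Grin1 alone of the 5 held a TTGGC half-site, at -46, against 46.7% of all promoters. These matches describe letters in the windows, and binding was not measured.

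The members lie on 9 chromosomes of the GRCm38 annotation, with Gria1 and Grin2c both on chromosome 11 and Gria3 on the X chromosome. Their exons sum to between 5037 bases for Grin2c and 24842 for Grin2b, so that a count per gene is not a level that can be set beside that of another gene. Levels of different genes are therefore compared as CPM per kilobase of exon, where CPM is the count relative to the library total after scaling by the trimmed mean of M-values (TMM). Exons of Grin1 share 1307 bases with the antisense gene Grin1os, those of Grin2d share 643 with Gm45441 and those of Grin2b share 143 with Gm14329. Whether the counting used strand is not given in the sources used here, so reads in those stretches cannot be assigned with certainty.

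Libraries held between 10672583 and 25722301 counts in total, and a member had between 185 and 13008 counts in a library, so counting error was small beside the spread between libraries. Markers of brain regions set some libraries apart. Gabra6, a receptor subunit of cerebellar granule cells, did not exceed 0.0637 CPM in Control males but lay at 31.5 to 435 CPM in 9 of the 10 restricted males, all except LeuR 21. In females Gabra6 exceeded 10 CPM in 8 of 23 libraries, 2 in each diet group. The label gives brain and the methods the left hemisphere. Summed over 10 forebrain markers, the level was 741 to 2265 CPM in Control males and 202 to 562 CPM in restricted males. A hindbrain score, the mean log2 CPM of 10 cerebellar and 10 brainstem genes minus that of the 10 forebrain genes, ran from -7.96 to -4.99 in Control males, from -3.31 to 4.34 in restricted males and from -7.78 to 3.40 in females. It exceeded 2 in 7 restricted males (IleR 14 and 17, LeuR 19 and all 4 ValR libraries) and in 1 female, LeuR 45. Each male comparison with Control thus carries a difference in region markers, and diet and the region content of the tissue cannot be told apart there. The summed oligodendrocyte markers were 4711 to 9858 CPM in Control and 6624 to 18455 CPM in restricted males, the astrocyte markers 1641 to 2369 against 1926 to 3950 CPM, and the pan-neuronal markers 4311 to 5734 against 3578 to 4529 CPM. Cerebellar markers summed to 39.8 to 150 against 432 to 5001 CPM and brainstem markers to 0.670 to 9.55 against 2.82 to 655 CPM, with 4 to 6 of the 10 brainstem genes at 0 counts in Control males. LeuR 21 held the lower end of both restricted ranges, and its brainstem sum lay within the Control range. It had 6 of the 10 brainstem genes at 0 counts, Gabra6 at 0 CPM and forebrain markers at 323 CPM. No other restricted male had a brainstem gene at 0 counts. Microglial markers were 315 to 357 against 204 to 366 CPM and oligodendrocyte precursor markers 153 to 182 against 108 to 218 CPM. In bulk tissue, fewer cells of a type and less RNA per cell cannot be told apart.

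The order of the levels depends on the length used, since the exonic length counts the bases of every annotated transcript. By exonic length, Gria1 and Grin1 stood highest in Control-fed males, at 68.4 ± 14.8 and 67.0 ± 10.0 CPM per kilobase (SD, n = 4), and their ranges overlapped. Gria2 followed at 42.0 ± 7.33 and lay below Grin1 and above Gria3 with no overlap, while Gria3 stood at 26.6 ± 5.51. Grin2b (18.7 ± 7.48), Gria4 (18.1 ± 1.27), Grin2c (14.5 ± 3.77) and Grin2a (11.7 ± 4.23) came next, and each gene overlapped its neighbour. Gria3 also overlapped Grin2b, and Grin2a overlapped Grin2d, so these genes were not set apart from those above and below. Grin2d (4.29 ± 2.68) and Grin3a (4.04 ± 1.04) were lowest and not distinguishable. In Control-fed females the first 3 genes came in the same order by exonic length, at 74.5 ± 3.75, 61.5 ± 9.46 and 40.6 ± 8.26 CPM per kilobase (n = 6), with Gria1 above Grin1 and Grin1 above Gria2 in 6 of 6 libraries. Grin2c came next in females at 30.2 ± 27.3, and 2 of the 6 libraries, Control 29 and 30, were above the other 4. By the longest coding sequence, an alternative chosen after seeing the data, Gria2 led in males at 246 ± 43.0 CPM per coding kilobase (SD, n = 4), followed by Grin1 at 226 ± 33.8 and Gria1 at 152 ± 32.8. Grin2b came next in males at 105 ± 41.8, while Grin2c stood at 19.6 ± 5.10, below Gria4 (42.1 ± 2.96), and Grin2d was lowest at 7.19 ± 4.49. In females the first 3 by coding length were likewise Gria2 (238 ± 48.5), Grin1 (207 ± 31.9) and Gria1 (165 ± 8.33, n = 6), and Grin2c at 40.9 ± 37.0 came below Gria3, Grin2b and Gria4.

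**Figure D1:**
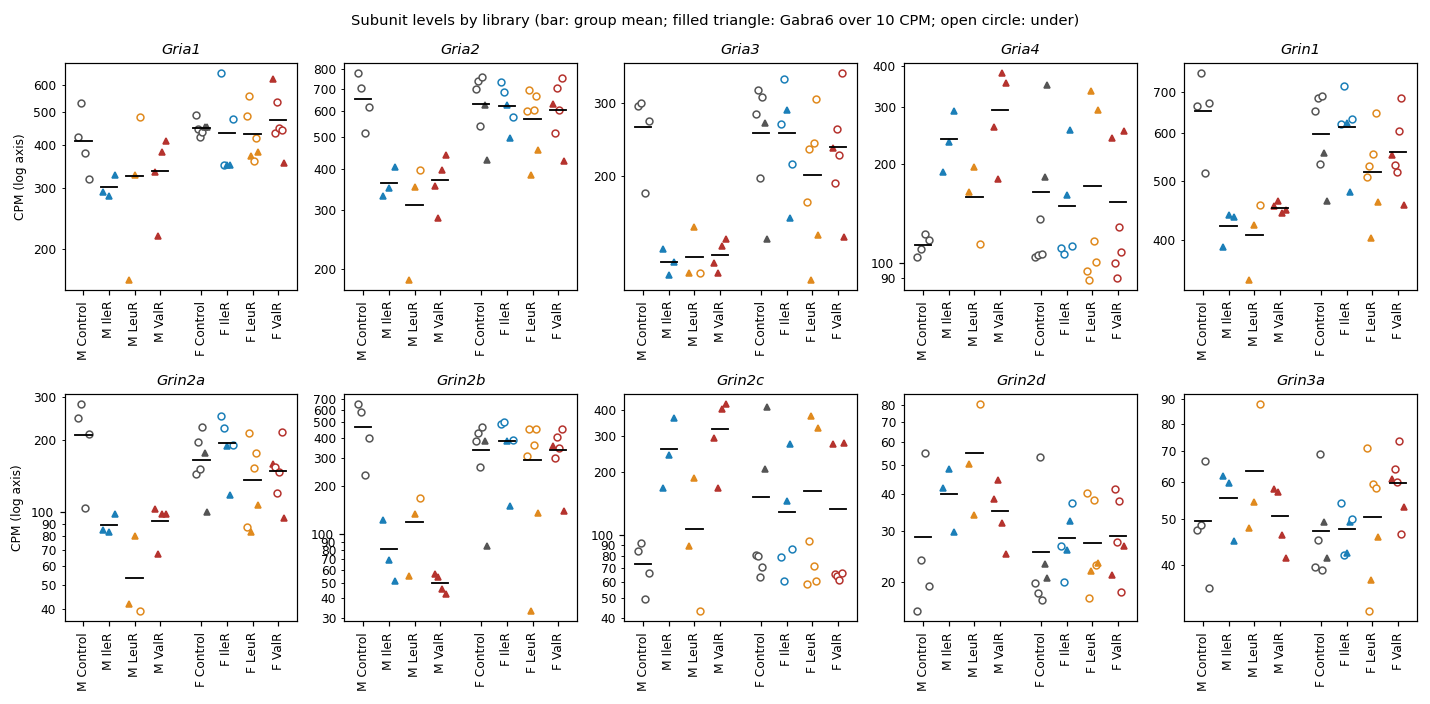
CPM of each subunit gene on a log axis, by library, for males (M) and females (F) on the 4 diets; bars are group means, filled triangles are libraries with Gabra6 over 10 CPM and open circles those under. Among males Grin2b was at most 169 CPM in every restricted library and at least 235 CPM in every Control library, and among females the filled triangles are the highest Grin2c values in each diet group.

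Grin2b, the GluN2B subunit of juvenile and forebrain NMDA receptors, had the largest difference of all members in IleR-fed and ValR-fed males, and in LeuR-fed males it differed by as much as Grin2a. Its levels were 647, 580, 235 and 398 CPM in Control, 123, 69.2 and 51.3 in IleR, 55.0, 134 and 169 in LeuR, and 56.5, 53.9, 45.5 and 42.4 in ValR. All 10 restricted libraries lay below all 4 Control libraries, the ValR group was the tightest and the lowest Control value was that of Control 4. Grin2b fell by 2.52 ± 0.43 on the log2 scale (SE) in IleR-fed males, 5.74-fold, with an adjusted p of 0.00216 in edgeR's quasi-likelihood test. It fell by 1.97 ± 0.42 in LeuR-fed males (3.91-fold, adjusted p = 0.0134) and by 3.23 ± 0.39 in ValR-fed males (9.39-fold, adjusted p = 0.000166). Against these, the fit with only the 1 IleR and 2 LeuR libraries that had a hindbrain score of 2 or less gave log2 differences of -1.92 and -1.61, with adjusted p of 0.320 and 0.218 in edgeR. Once the hindbrain score was a covariate, the Grin2b difference was 0.19 in IleR, 0.029 in LeuR and -0.036 in ValR (adjusted p = 0.963, 0.998 and 0.997, edgeR), in males whose Control and restricted scores do not overlap.

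Grin2a, which encodes the GluN2A subunit of mature synapses, fell in the same 3 diets, by less than Grin2b in IleR and ValR and by a like amount in LeuR. It stood at 246, 279, 104 and 210 CPM in Control, at 84.7, 82.7 and 98.2 in IleR, at 41.8, 80.2 and 39.2 in LeuR and at 103, 67.5, 98.1 and 98.6 in ValR. Control 4 lay only just above ValR 7, and the groups did not overlap. The log2 decreases were 1.25 ± 0.31 (SE) in IleR, 1.97 ± 0.32 in LeuR and 1.19 ± 0.28 in ValR, with adjusted p of 0.0164, 0.00503 and 0.00809 (edgeR). Unlike Grin2b, Grin2a was lowest in LeuR-fed males, at 53.7 ± 23.0 CPM (SD, n = 3) against 88.5 ± 8.41 in IleR and 91.8 ± 16.4 in ValR, but ValR against LeuR did not pass the test for it (adjusted p = 0.147, edgeR).

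Grin2c, the GluN2C gene of cerebellar granule cells, went the other way in 2 of the 3 diets. Control males had 84.4, 91.7, 49.5 and 66.2 CPM, IleR-fed males 168, 243 and 364, LeuR-fed males 89.0, 189 and 43.4, and ValR-fed males 292, 169, 402 and 423. No IleR or ValR library reached down into the Control range, whereas of the LeuR libraries LeuR 20 alone lay above it, and LeuR 21, the restricted male without Gabra6, had the lowest Grin2c of all 14. Grin2c rose 3.55-fold in IleR (log2 difference 1.83 ± 0.43 (SE), adjusted p = 0.0127) and 4.40-fold in ValR (2.14 ± 0.42, adjusted p = 0.00248, edgeR). In LeuR the log2 difference was 0.55, with a 95% interval from -0.38 to 1.48.

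Gria4, whose GluA4 subunit gives AMPA receptors fast kinetics, rose in the same 2 diets. It was 105, 110, 123 and 118 CPM in Control, the tightest of the members there, and 190, 234 and 292 in IleR, 165, 196 and 115 in LeuR, and 260, 181, 379 and 353 in ValR. Only LeuR 21 among the restricted males lay within the Control range. The rise was 2.09-fold in IleR (log2 difference 1.07 ± 0.23 (SE), adjusted p = 0.00841) and 2.58-fold in ValR (1.37 ± 0.22, adjusted p = 0.00077, edgeR), while the LeuR difference was 0.48 with an interval from -0.03 to 0.98.

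Gria3, Gria2 and Grin1 fell in all 3 diets with similar sizes. Gria3 stood at 295, 299, 183 and 271 CPM in Control and between 116 and 151 in the 10 restricted libraries, with no overlap. It fell by 1.07 ± 0.16, 1.03 ± 0.16 and 1.02 ± 0.14 on the log2 scale (SE) in IleR, LeuR and ValR (adjusted p = 0.00132, 0.00423 and 0.000336, edgeR). For Gria2, which sets the calcium permeability of AMPA receptors, Control libraries held 778, 702, 512 and 618 CPM and restricted libraries 185 to 441, again without overlap. Its log2 decreases were 0.85 ± 0.23, 1.07 ± 0.24 and 0.82 ± 0.21, with adjusted p of 0.0270, 0.0157 and 0.0137 (edgeR). LeuR 19, at 185 CPM, was the lowest of all 37 libraries for Gria2, and it was also the lowest for Gria1 at 162 CPM. Grin1, required in every NMDA receptor, stood at 663, 750, 516 and 671 CPM in Control and at 345 to 464 in restricted males, and the 4 ValR libraries agreed closely at 453 ± 9.16 (SD, n = 4). It fell by 0.62 ± 0.13, 0.67 ± 0.13 and 0.52 ± 0.12 on the log2 scale in IleR, LeuR and ValR (adjusted p = 0.00615, 0.00878 and 0.00614, edgeR).

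The other 3 members did not pass the threshold in any male comparison with Control. Gria1, the GluA1 subunit that is inserted during synaptic potentiation, stood at 422, 531, 381 and 318 CPM in Control, at 285 to 329 in IleR, 162 to 485 in LeuR and 219 to 411 in ValR, and the log2 differences of -0.45, -0.35 and -0.30 all had intervals that included 0. Grin2d was 16.0, 23.8, 54.9 and 19.5 CPM in Control and 25.0 to 80.2 in the restricted groups, with the highest values in LeuR 21 and Control 4. Its largest log2 difference was 0.94 in LeuR, with an interval from 0.11 to 1.77 and an adjusted p of 0.136 (edgeR). Grin3a, whose GluN3A subunit lowers calcium entry, varied from 35.6 to 66.6 CPM in Control and from 41.3 to 87.8 in restricted males, and LeuR 21 was again the highest. Its log2 differences of 0.17, 0.35 and 0.03 had intervals that included 0.

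Grin3b, the remaining NMDA receptor gene of the mouse and no member of the set, was near its detection limit in Control males, at 0.136, 0.178, 0.700 and 0.0559 CPM, and stood at 1.60 to 2.67 CPM in IleR, 0.621 to 5.38 in LeuR and 1.85 to 4.39 in ValR. It passed the test in the 3 diets (adjusted p = 0.0166, 0.0103 and 0.00318, edgeR). Of its 3296 exonic bases 1059 lie within Tmem259 on the opposite strand, so these reads are uncertain.

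Counted over the set, 2 members rose and 5 fell in IleR-fed males, where 15.3% of the 22197 genes tested passed the threshold, 6.63% higher and 8.68% lower. In LeuR-fed males 0 rose and 5 fell, against 10.1% of genes (3.81% higher and 6.33% lower), and in ValR-fed males 2 rose and 5 fell, against 23.5% (11.1% higher and 12.4% lower). In LeuR 6 members had an unadjusted p under 0.05, as had 27.0% of all genes. Limma voom and DESeq2 gave the same counts of members in each diet. In IleR, LeuR and ValR limma voom called 16.7%, 10.9% and 23.3% of genes, and DESeq2 called 19.7%, 16.3% and 26.9%. A fit of only the Control and LeuR libraries called 0 members and 0% of all genes, leaving out LeuR 19 left 3 members in LeuR (2.41% of genes), and leaving out IleR 17 left 4 in IleR (8.07% of genes). With the hindbrain score as covariate 0 members passed in any of the 3 diets, in a fit that called 0.0135%, 0.0496% and 0% of all genes in IleR, LeuR and ValR. The 3 comparisons share the same 4 Control libraries, so their members' values are given side by side and not as independent evidence. The median log2 difference of the 10 members was -0.54 in IleR, -0.51 in LeuR and -0.41 in ValR, and that of all genes tested was 0.04, 0.05 and 0.03. The members called in each diet were those without overlap with Control, 5 below in each diet and 2 above in IleR and ValR, where 14.5%, 9.48% and 13.6% of genes lay below all Control libraries and 14.8%, 8.21% and 12.7% of genes lay above them, in IleR, LeuR and ValR in turn. A joint test of the 4 diets in males passed for 7 members (19.3% of genes), all except Gria1, Grin2d and Grin3a. Without the 7 male libraries with a hindbrain score over 2, a choice made after seeing the data, 0 members passed in IleR (1 library left) and 0 in LeuR (2 left), with 5 of 10 in each at an unadjusted p under 0.05 (11.0% and 12.8% of all genes), and ValR had no library left. In that fit 0 of all genes passed in IleR and 1 in LeuR, so the members' count is read against almost no call at all, and the lone IleR library was assumed to vary like the other groups.

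**Figure D2:**
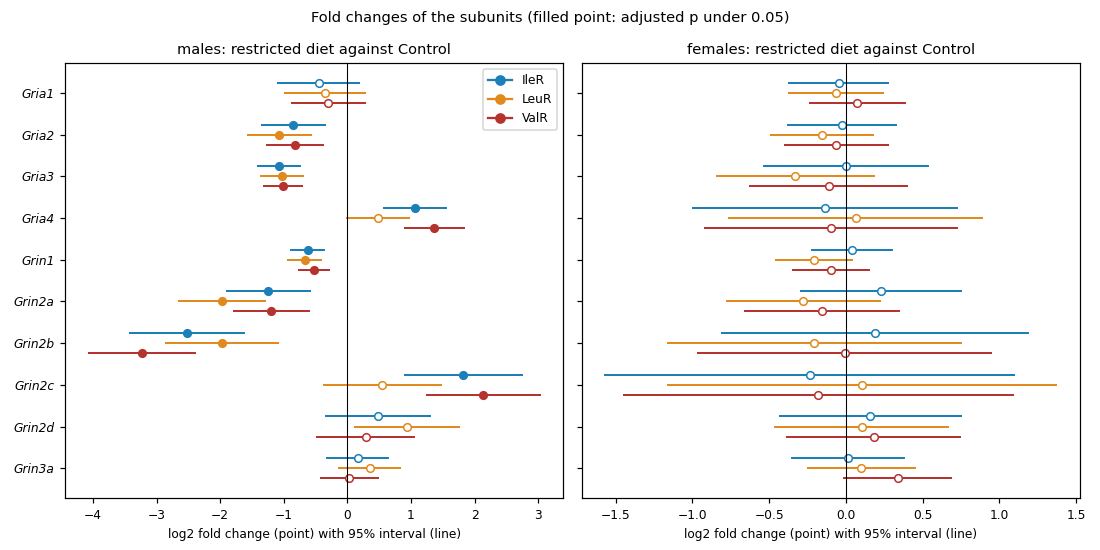
Log2 fold change of each subunit gene against Control with its 95% interval, for IleR, LeuR and ValR, males on the left and females on the right; filled points have an adjusted p under 0.05 in edgeR. In males Grin2b reaches -3.23 and Grin2c 2.14 in ValR, while in females every interval includes 0.

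Between restricted diets in males, 0 members passed for ValR against IleR and for IleR against LeuR, where 0% of genes passed by edgeR, with 0 and 3 members at an unadjusted p under 0.05 (2.83% and 11.3% of genes). DESeq2 and limma voom also called 0 members in each, where DESeq2 called 0.0315% and 0.482% of genes and limma voom 0%. For ValR against LeuR, where 2.75% of genes passed (1.73% higher and 1.03% lower), 0 members passed by edgeR and limma voom, 4 had an unadjusted p under 0.05 (23.9% of genes) and 3 passed by DESeq2, which called 11.5% of genes. Grin2c was 3.00-fold and Gria4 1.85-fold higher in ValR than in LeuR (adjusted p = 0.0647 and 0.0587, edgeR), and Grin2b was 2.40-fold lower (adjusted p = 0.0798). The hindbrain score of the 3 LeuR males was -3.31 to 2.96 and that of the 4 ValR males 3.17 to 4.34. Without LeuR 20 3 members passed for ValR against LeuR (5.40% of genes), without ValR 9 2 (8.91%) and without LeuR 19 1 (1.60%).

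Shares of each receptor family do not depend on the scaling between libraries, but their level depends on the length by which the counts are divided. By exonic length, Grin2c made up 28.4 to 30.0% of the length-scaled GluN2 counts in the 4 Control males, a spread of 0.722 (SD) around 29.5%. In restricted males its share was 67.7, 76.7 and 85.8% in IleR, 59.4, 71.6 and 29.1% in LeuR, and 80.8, 72.7, 86.8 and 88.5% in ValR. By exonic length Grin2c was the leading GluN2 gene in 9 of 10 restricted males and in Control 4, while in LeuR 21 Grin2d led with 40.6%. By coding length the Grin2c share was 11.2 ± 1.19% in Control (SD, n = 4) and 14.8 to 74.8% in restricted males, and that of Grin2b 57.2 ± 5.29% against 6.27 to 48.2%. Grin2c then led in 9 of 10 restricted males, and Grin2b in LeuR 21 (48.2%) and in all 4 Control males. The Grin2b share by exonic length was 44.2, 38.5, 28.4 and 36.6% in Control and between 1.80% (ValR 12) and 22.9% (LeuR 21) in the restricted males. That of Grin2a was 17.4 to 26.8% against 5.79 to 9.56%, also by exonic length. The Grin2d share of Control 4, at 24.7% by exonic length, stood apart from 4.08 to 6.68% in the other 3 Control males.

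Among the AMPA subunits the Gria4 share rose and those of Gria2 and Gria3 fell, in shares by exonic length unless coding length is named. Gria4 made up 9.66 to 14.5% in Control males and 13.4 to 36.9% in the restricted males, where LeuR 21 was the only one in the Control range. By coding length LeuR 21, at 10.2%, lay just above the highest Control male, at 10.1%. The Gria2 share fell from 27.1 ± 2.70% (SD, n = 4) to 17.9 ± 1.38% over the 10 restricted males and the Gria3 share from 17.1 ± 2.52% to 10.7 ± 2.31%, while Gria1 made up 43.9 ± 4.83% and 41.9 ± 6.54%. With the 3 diets together against Control, 5 of 10 shares and ratios passed a two-sided exact permutation test adjusted over the 40 comparisons in males: Gria2, Grin2a and Grin2b (p = 0.00200, the smallest that 10 against 4 libraries can give, adjusted p = 0.0266), Gria3 (adjusted p = 0.0400) and Gria4 (adjusted p = 0.0480). By coding length 5 passed as well, with Grin2c (42.8 percentage points higher, adjusted p = 0.0160) in place of Gria3 (adjusted p = 0.0533, exact permutation tests). With 1 restricted library left out, 3 values passed in 8 of the 10 cases (Gria2, Grin2a and Grin2b), 4 without LeuR 19 and 8 without LeuR 21. With 1 Control library left out, 10 against 3 libraries cannot go below an exact permutation p of 0.00699 and the 3 or 4 values without overlap could not pass after adjustment, while the Grin2b difference stayed between -32.8 and -27.6 and the Gria2 difference between -10.1 and -8.23 percentage points. By exonic length the Grin2c share, 42.4 percentage points higher, had an exact permutation p of 0.00799 and an adjusted p of 0.0533. For single diets 0 of 30 passed, since 3 against 4 libraries cannot go below p = 0.0571 and 4 against 4 not below p = 0.0286 in an exact permutation test. The ratio of Grin2a to Grin2b on the log2 scale was -0.93 to -0.45 in Control and 0.79 to 1.69 in ValR, but in LeuR-fed males it spanned -1.64 to 0.07 on both sides of the Control range. The summed AMPA over summed NMDA level, 0.37 ± 0.12 on the log2 scale in Control, differed by -0.17 in restricted males (exact permutation p = 0.158, adjusted p = 0.218), a sign that turned with coding length. Without the libraries with a score over 2 only 3 restricted males were left and 0 of 10 shares passed, with Grin2b 22.5 and Gria2 8.41 percentage points below Control.

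**Figure D3:**
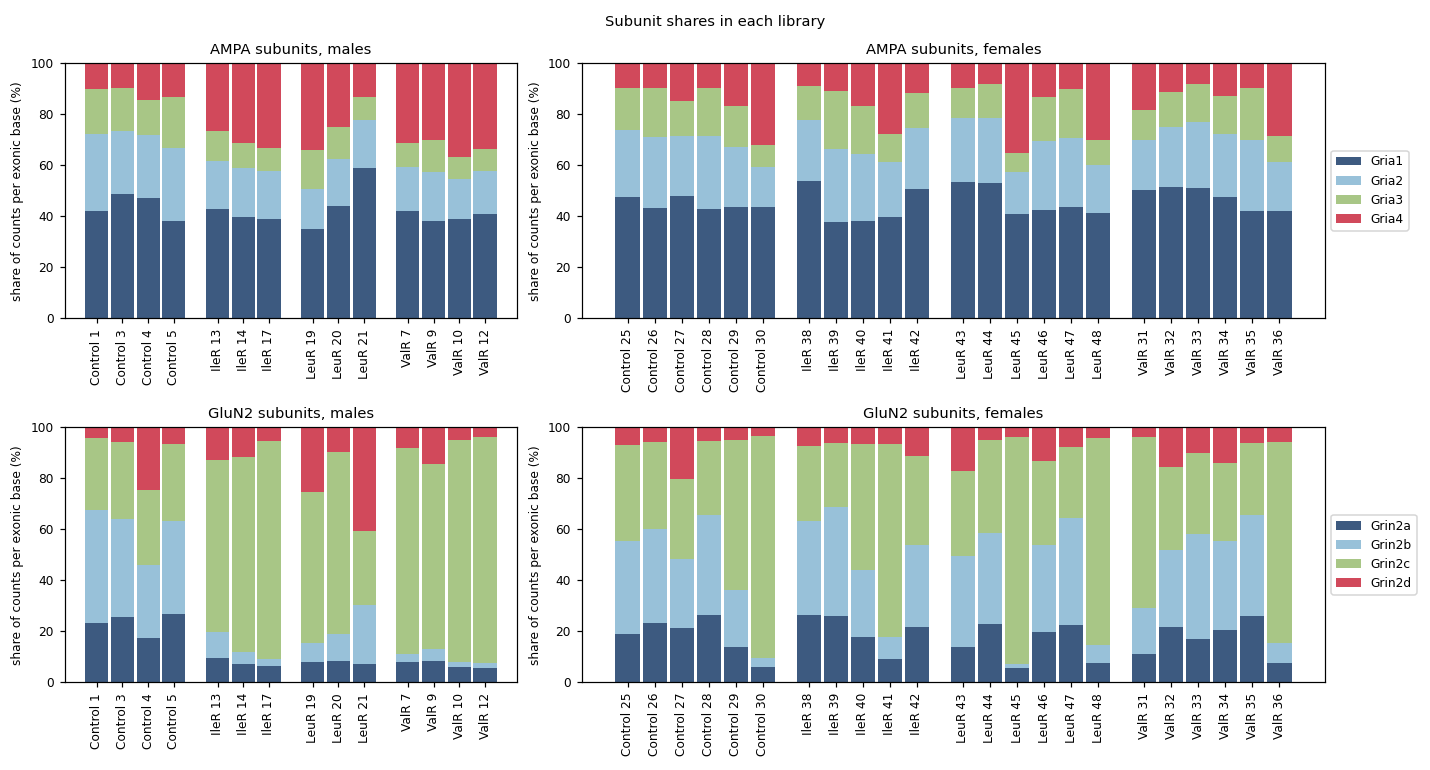
Share of each subunit in the length-scaled counts of the AMPA subunits (top) and the GluN2 subunits (bottom), as a percent, with 1 stacked bar per library, males on the left and females on the right. Grin2c fills 67.7 to 88.5% of the GluN2 bar in each IleR and ValR male and 29.1% in LeuR 21, and in females the 2 libraries with the most Grin2c are LeuR 45 and Control 30.

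In females 0 of 10 members passed for IleR, LeuR or ValR against Control, where 0% of the 20344 genes tested passed by edgeR, and 0 members had an unadjusted p under 0.05. Every member overlapped Control in each diet, while 0.108%, 0.133% and 0.0737% of genes lay above all Control libraries and 0.143%, 0.0836% and 0.0541% below them, in IleR, LeuR and ValR in turn. DESeq2 called 0 members in each diet, where it called 8, 1 and 0 genes in IleR, LeuR and ValR. Limma voom also called 0 members, where it called 1, 0 and 0 genes, and in it 1 member had an unadjusted p under 0.05 in ValR, as had 4.05% of genes. Over the 4 diets together 0 members passed, against 0.0197% of genes. The lowest unadjusted p of edgeR was 0.0603, for Grin3a in ValR, which stood at 46.4 to 73.5 CPM (median 60.4) against 39.0 to 68.9 (median 43.3) in Control. The members' medians of log2 difference were 0.01 in IleR, -0.11 in LeuR and -0.08 in ValR. For Grin2b the 95% intervals of the log2 difference ran from -0.82 to 1.19 in IleR, from -1.17 to 0.75 in LeuR and from -0.97 to 0.95 in ValR, so that the intervals still hold a doubling in IleR and a halving in LeuR.

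Female Grin2b ranged from 85.0 to 472 CPM in Control (median 384), from 151 to 504 in IleR (389), from 33.2 to 457 in LeuR (335) and from 139 to 456 in ValR (352), and the groups overlapped fully. The lowest library of each group was Control 30, IleR 41, LeuR 45 and ValR 36. Grin2c ranged from 63.3 to 410 CPM in Control (median 80.2), 60.4 to 274 in IleR (86.1), 58.4 to 371 in LeuR (82.5) and 61.2 to 276 in ValR (65.6), and the highest library of each group was again one of these 4. None of the 40 shares and ratios passed in females (lowest adjusted p = 0.989, exact permutation tests). Without the 8 libraries with Gabra6 over 10 CPM, also chosen after seeing the data, 0 members passed in females. The share of all genes in that fit is not given here, so the 0 is not read as a result about the members.

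A diet by sex interaction was tested on 22465 genes. For ValR, where 4.25% of genes passed (0.677% higher and 3.57% lower), Grin2b was the only member called, with a log2 fold change in males 3.23 ± 0.69 (SE) lower than in females (adjusted p = 0.0124, edgeR). Limma voom called 0 members (adjusted p = 0.0503 for Grin2b) and 0.129% of genes. In each tool 7 members had an unadjusted p under 0.05, against 26.0% of genes in edgeR and 25.5% in limma voom. For IleR (0.0979% of genes) and LeuR (0.00445%) 0 members passed, with 7 and 4 at an unadjusted p under 0.05 (19.1% and 13.0% of genes). Limma voom also called 0 members in both (0% and 0.00445% of genes), with 6 and 3 at an unadjusted p under 0.05 (19.1% and 12.8% of genes). The Grin2b terms of edgeR were -2.69 and -1.74 (adjusted p = 0.0775 and 0.301). The hindbrain score of the 4 ValR males was 3.17 to 4.34 and that of the 6 ValR females -7.23 to 0.17. With the score as a covariate the Grin2b term was -0.48 (adjusted p = 0.876, edgeR).

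The female libraries fell into separate groups by Gabra6, with 15 at 2.46 CPM or less and 8 at 78.2 CPM or more, spread evenly over the diets. Grin2c was 58.4 to 93.9 CPM in the 15 and 146 to 410 CPM in the 8, and Gria4 88.9 to 136 against 161 to 350 CPM, both without overlap. The Grin2c share of GluN2 counts was 25.1 to 37.6% in the 15 and 49.3 to 88.9% in the 8, and the Grin2b share 26.9 to 42.6% against 1.61 to 26.3%, by exonic length. By coding length the Grin2c share was 8.77 to 14.8% in the 15 and 22.5 to 75.8% in the 8. Levels in LeuR 45, the female with the highest hindbrain score, came near those of ValR-fed males, with Grin2b at 33.2, Grin2c at 371 and Gria4 at 335 CPM.

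Relations to the hindbrain score were taken within each group of females, 20 in all, with permutation tests of 100000 resamples for the 15 and exact ones for the 8. Of the 10 brainstem genes in the score, 3 to 7 were at 0 counts in each of the 15 libraries and 0 to 5 in the 8. Part of the score thus lay at its floor in the 15, where it is not read as a measure of hindbrain content. Over the 8 libraries Grin1 (r = -0.944, rho = -0.976), Grin2b (r = -0.944, rho = -0.881), Grin2a (r = -0.906, rho = -0.952), Gria2 (r = -0.902, rho = -0.905) and Gria3 (r = -0.896, rho = -0.905) were lower where the score was higher. Their exact permutation p lay between 7.44e-05 and 0.00131 for r and between 0.000397 and 0.00724 for rho. Their adjusted p lay between 0.0007 and 0.0027 for r and between 0.00265 and 0.0132 for rho in the exact permutation test, and r stayed at -0.847 or lower without IleR 40 and LeuR 45, the 2 libraries farthest from the median score. Over the 15 libraries Grin2b (r = -0.857, rho = -0.750), Gria2 (r = -0.840, rho = -0.796), Gria3 (r = -0.741, rho = -0.746) and Grin1 (r = -0.670, rho = -0.686) showed the same sign, with a permutation p from 0.00011 to 0.00558 for r and from 0.00064 to 0.00616 for rho, adjusted p from 0.0007 to 0.0101 for r and from 0.0032 to 0.0123 for rho, and r between -0.806 and -0.636 without Control 27 and 28. Grin2a had the same sign there but did not pass (r = -0.529, permutation p = 0.0437, adjusted p = 0.0654, rho = -0.546, adjusted p = 0.0573).

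Grin2d and Grin3a, which did not pass the threshold in males, tracked the score closely within these 15 libraries. There 3 to 7 of the 10 brainstem genes of the score were at 0 counts in each library. Grin2d was higher with a higher score (r = 0.928, permutation p = 1e-05, the smallest that the resamples can give, adjusted p = 0.0002, rho = 0.918, adjusted p = 0.0003, permutation test), as did Grin3a (r = 0.837, adjusted p = 0.0007, rho = 0.918, adjusted p = 0.0003), and without the 2 farthest libraries r was 0.914 and 0.874. Over the 8 libraries r was -0.156 for Grin2d and -0.511 for Grin3a, and neither passed. Gria4 passed over the 8 libraries for r (0.759, adjusted p = 0.0443, exact permutation test) but not for rho (0.738, adjusted p = 0.0655), and its r was 0.574 without the 2 farthest libraries. Grin2c passed there for rho (0.810, adjusted p = 0.0363) but not for r (0.726, adjusted p = 0.0654), with 0.522 without those libraries. Over the 15 libraries the sign of Grin2c was the opposite (r = -0.454, adjusted p = 0.117, rho = -0.493, adjusted p = 0.0863, permutation test) and Gria4 had r = 0.449 (adjusted p = 0.117), and Gria1 passed in neither group.

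**Figure D4:**
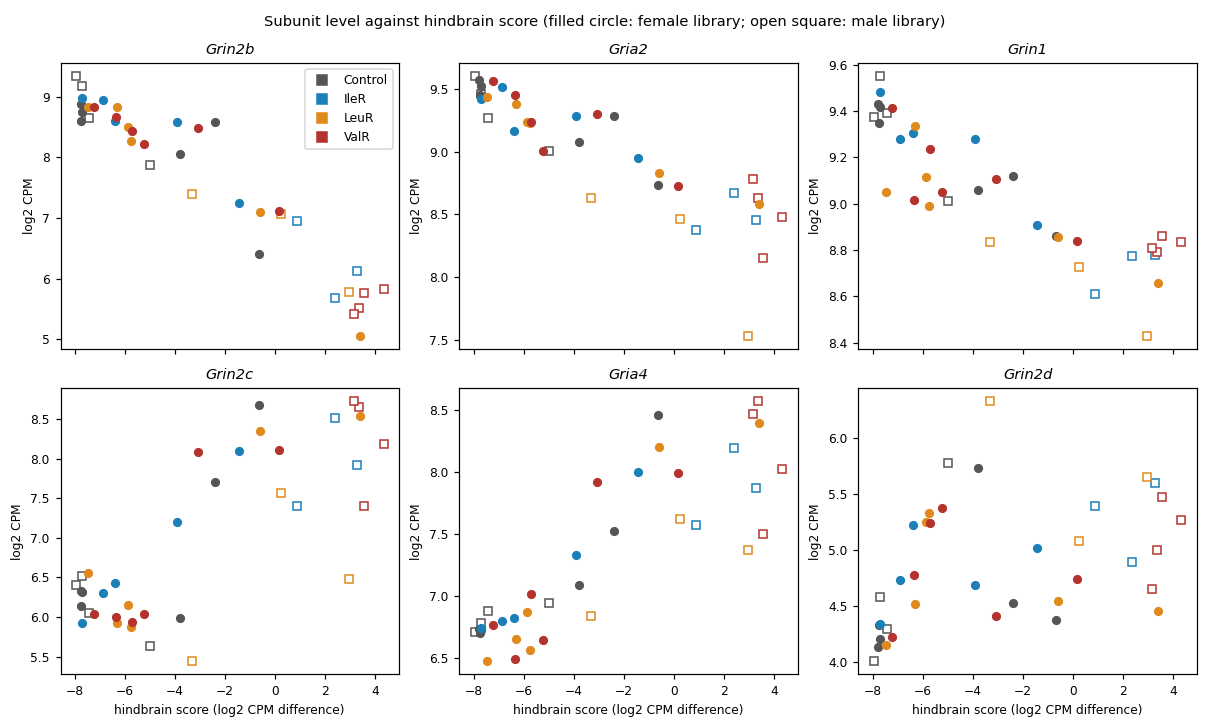
Log2 CPM of 6 subunit genes against the hindbrain score of each library (a difference of mean log2 CPM), with females as filled circles and males as open squares, coloured by diet. Grin2b, Gria2 and Grin1 are lower to the right, and Grin2c and Gria4 are mostly higher there although Grin2c does not rise among the libraries at the far left; on the right 9 of the 10 restricted males (scores from 0.23 to 4.34) and female LeuR 45 (3.40) lie.

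Genes that act with these receptors were read from lists written with earlier results of these data known, and their counts stand beside the 15.3%, 10.1% and 23.5% of all genes called in IleR, LeuR and ValR. Of 13 auxiliary subunits of AMPA receptors, 2 rose and 6 fell in IleR-fed males, 0 and 4 in LeuR and 3 and 7 in ValR, with medians of -0.67, -0.68 and -1.08 on the log2 scale. Cnih3, a cornichon that slows AMPA receptor closing, fell from 53.4 ± 9.25 CPM in Control (SD, n = 4) to 12.6 ± 1.48 in IleR (n = 3), 15.1 ± 8.90 in LeuR (n = 3) and 5.42 ± 1.99 in ValR (n = 4). Cacng5, a transmembrane regulatory protein of AMPA receptors, was higher in IleR and ValR, at 26.5 ± 5.36 and 32.1 ± 8.22 against 11.8 ± 4.77 CPM in Control. Their adjusted p lay between 0.000131 and 0.0261 in edgeR where called.

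Of 18 postsynaptic scaffolds, 12 fell in IleR, 14 in LeuR and 11 in ValR, and Homer3 alone rose in each. Homer1, which links metabotropic receptors to calcium stores, fell from 231 ± 121 CPM to 30.0 ± 4.22, 31.9 ± 9.63 and 28.2 ± 3.76 (adjusted p = 0.00129, 0.00392 and 0.000200, edgeR). Homer3, the family member of Purkinje cells, rose from 11.1 ± 3.83 CPM to 146 ± 82.2, 44.1 ± 32.7 and 214 ± 95.6 (adjusted p = 0.00159, 0.0413 and 0.000279). Of 13 genes of calcium signalling and receptor trafficking, 1 rose and 7 fell in IleR, 0 and 9 in LeuR and 2 and 8 in ValR. Camk2a, the forebrain-rich kinase that binds GluN2B, fell from 3575 ± 1698 CPM to 269 ± 128, 580 ± 488 and 153 ± 42.7 (adjusted p = 0.00494, 0.0318 and 0.000466, edgeR). Nos1, neuronal nitric oxide synthase, rose in IleR and ValR (adjusted p = 0.0281 and 0.00441) and stood at 154 ± 35.2 CPM in LeuR against 93.1 ± 34.4 in Control.

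Of 9 kainate and delta receptor genes with the Neto proteins, 1 rose and 3 fell in IleR, 1 and 1 in LeuR and 2 and 4 in ValR. Neto1, an auxiliary protein of kainate receptors, fell in IleR and ValR (adjusted p = 0.00481 and 0.000554), and Grik5, the GluK5 kainate subunit, fell in all 3 and was the only one of its list to fall in LeuR (adjusted p = 0.0453). Of 7 metabotropic receptors, 2 rose and 4 fell in IleR, 0 and 2 in LeuR and 2 and 5 in ValR. Grm4, the presynaptic receptor of parallel fibres, rose from 44.3 ± 6.82 CPM to 254 ± 126 in IleR and 291 ± 119 in ValR, while Grm5, a postsynaptic receptor of forebrain neurons, fell from 212 ± 56.9 to 77.8 ± 18.5, 91.4 ± 33.7 and 48.7 ± 17.9 in the 3 diets.

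Among 3 RNA editing enzymes, Adarb1, which edits the GluA2 transcript at the calcium site, rose in IleR and ValR by 0.37 and 0.46 on the log2 scale (adjusted p = 0.0225 and 0.00276, edgeR), and Adar fell by 0.35 in ValR (adjusted p = 0.0324). Of 4 genes that handle the NMDA receptor co-agonists, 3 rose and Srr fell in each diet. One of the 3, Dao, was at 0 counts in libraries of Control and LeuR and entered the test through IleR and ValR, where it was high, so its call is no support for the list. Srr, which makes D-serine, fell from 92.3 ± 19.2 CPM to 43.2 ± 0.841, 47.1 ± 7.43 and 41.1 ± 4.07 (adjusted p = 0.00130, 0.00503 and 0.000185, edgeR). Dao, the cerebellar oxidase that breaks D-serine down, was 0 to 0.955 CPM in Control, 16.6 to 32.3 in IleR, 0 to 20.0 in LeuR and 23.1 to 41.0 in ValR. In females Dao was not tested, and 0 genes of these 7 lists passed in any diet. Without the libraries with a score over 2 0 genes of the 7 lists passed in IleR or LeuR, in a fit that called 0 and 1 of all genes. At an unadjusted p under 0.05 in IleR and LeuR were 6 and 5 of the 13 auxiliary subunits, 12 and 15 of the 18 scaffolds, 8 and 10 of the 13 signalling genes, 4 and 3 of the 9 kainate and delta genes, 5 and 5 of the 7 metabotropic receptors, 0 and 0 of the 3 editing enzymes and 3 and 4 of the 4 co-agonist genes, beside 11.0% and 12.8% of all genes. Homer1 differed there by -2.84 and -2.64 on the log2 scale (adjusted p = 0.332 and 0.206, edgeR).

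The genes whose log2 CPM was most like that of a member were taken from 13643 genes by the mean of Pearson's r over the 14 male and over the 23 female libraries, a description over libraries that also differ in region content. For Grin2b these were Ptk2b (r = 0.988 in males and 0.989 in females), B230334C09Rik and Mmd, for Gria3 they included Inka2 (0.982 and 0.971) and Dclk1, and for Gria2 Celf2 (0.982 and 0.971), Slc8a2 and Pip5k1a. Grin1 was nearest to Jph3 (0.984 and 0.958), Cyfip2 and Strn4, and Grin2a to Camta2 (0.961 and 0.938), Mical2 and Kcnj6. For Grin2c they included Mmp24 (0.979 and 0.979) and Gdf10, and for Gria4 Asph (0.984 and 0.983), Tspan9 and Rps6ka1. Grin2d was nearest to Nap1l5 (0.971 and 0.961), Slc6a11, the GABA transporter GAT3, and Gprasp2, and Grin3a to Krt1 (0.921 and 0.891), Wdr6 and Slc39a6. Gria1 had the loosest match, with Ptpra at 0.738 and 0.879, Lrrn2 and Rybp.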

How the data were processed

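RNA-seq libraries of brains from male and female 3xTg mice on 4 diets were analysed: 14 male and 23 female libraries. The other 10 libraries in the labels, all male, were not analysed here, and per the methods clear outliers were removed. The labels and methods describe the RNA selection differently, and the extraction label names liver where the tissue label names brain. The authors aligned reads to GRCm38 and deposited an expected count per Ensembl gene and library, without normalization; the aligner is not given in the sources used here. Their tables of log2 fold changes and p-values against Control, deposited as results of a limma fit, were not used.

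Expected counts were rounded. A gene was kept in a sex where each library of some diet group held 1 count or more. The kept genes were scaled by TMM and fitted per sex with edgeR 4.0.16 (quasi-likelihood test) in R 4.3.3, with Benjamini-Hochberg adjustment over all genes and a threshold of 0.05. Limma 3.58.1 and DESeq2 1.42.0 served as alternatives, beside other filters, scalings, libraries left out and the hindbrain score as a covariate. Log2 CPM used a prior count of 2. Shares used counts divided by exonic length. The members and lists were chosen with earlier results of these data known. Genes named were the members, Grin3b, the genes of each list with the largest and smallest mean change or alone in their direction, and the 3 genes most like each member, some of which are not reported here. In each of 73 pairs of libraries of a group the counts differed by more than counting error, and p-values measure the spread between these libraries. The scripts were tested on simulated data.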

Additional observations from a re-analysis of the deposited data

Results flagged for a closer look

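In 120 sets of values, each a member or share in a group of 4 to 6 libraries, 10 held a library far from the others by Dixon's criterion, where chance alone flags about 1 in 20. In Control-fed females, library 30 stood highest for Gria4 (350 CPM, next 183), for the Gria4 share of AMPA subunits (32.3%, next 17.0%) and for the log2 ratio of Grin2a to Grin2b (0.71, next -0.34), and its Gabra6 level was 381 CPM. Control female 27 stood highest for Grin2d (53.2 CPM, next 23.0), the Grin2d share of GluN2 subunits (20.1%, next 7.05%) and Grin3a (68.9 CPM, next 49.3), with Gabra6 at 2.46 CPM. IleR female 42 had the highest Grin2d share of its group (11.4%, next 7.47%) and IleR female 41 the highest log2 ratio of Grin2a to Grin2b (0.11, next -0.50). Control male 4 stood apart in the Grin2d share (24.7%, next 6.68%), and its hindbrain score of -4.99 was the highest of the 4 Control males. ValR male 9 was the lowest of its group for Grin2a (67.5 CPM, next 98.1).

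By edgeR the ValR difference of Grin2b differed between the sexes, with an interaction term of -3.23 on the log2 scale (adjusted p = 0.0124, edgeR). That test called 4.25% of genes. By limma voom the term was -3.25 and did not pass (adjusted p = 0.0503, limma voom), where 0.129% of genes passed. The term was -0.48 (adjusted p = 0.876, edgeR) once the hindbrain score entered as a covariate, and the scores of Control and restricted males do not overlap.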

How the results depend on the processing

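No paired analysis was possible because library numbers were unique, with none shared between groups. Limits were the 3 to 4 male libraries a group, the region content that goes with diet in males, and counting whose strand is not known. The male counts of members against Control were the same under limma voom, DESeq2 size factors and other filters, and the female counts were 0 under each alternative run. Those male fits called 9.61 to 20.7% of genes in IleR, 6.57 to 14.4% in LeuR and 15.1 to 30.6% in ValR.

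At an adjusted p under 0.01, 4 members passed in IleR, 3 in LeuR and 0 in the ValR interaction. The share of all genes at that threshold is not given here, so these counts have no background beside them. With limma voom 0 passed in the ValR interaction (0.129% of genes), and with DESeq2 3 passed for ValR against LeuR (11.5% of genes). With only the 2 groups compared 0 passed in LeuR (0% of genes), a fit with fewer libraries. Without the libraries with a score over 2 0 passed in IleR, 0 in LeuR and 0 of 10 shares, with fewer libraries. With the hindbrain score as a covariate 0 members passed in IleR, LeuR, ValR, the 4 diets and the ValR interaction, in fits that called 0 to 0.0496% of genes. Signs turned under that covariate, on the log2 scale, in IleR for Gria2 (0.55), Grin2b (0.19), Grin3b (-0.89), Adar (0.0866), Camk2a (1.42), Cnih3 (0.17) and Grik5 (0.48), in LeuR for Grin2b (0.029), Camk2a (0.87) and Grik5 (0.35), in ValR for Gria2 (0.77), Grin1 (0.16), Grin3b (-1.07), Adar (0.0857), Camk2a (1.48), Dao (-0.16) and Grik5 (0.64), and in the ValR interaction for Gria2 (0.13), Gria3 (0.22), Gria4 (-0.53), Grin2a (0.0089) and Grin2c (-0.64). Since the scores of Control and restricted males do not overlap, diet and score cannot be told apart there. The log2 AMPA to NMDA difference turned to 0.0893 with coding length, 0.16 with no length and 0.0441 without the libraries with a score over 2, and the cause was not tested.

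Leaving out 1 library at a time gave 4 to 8 members in IleR (4 without IleR 17), 3 to 6 in LeuR (3 without LeuR 19), 7 to 7 in ValR, 6 to 8 over the 4 diets and 0 to 3 for ValR against LeuR. All genes called moved as well, from 8.07 to 19.5% in IleR, from 2.41 to 17.7% in LeuR and from 17.2 to 26.4% in ValR. They ran from 12.1 to 22.8% over the 4 diets and from 0 to 8.91% for ValR against LeuR. The interaction gave 0 to 3 for IleR (3 without male Control 4 or female IleR 41, 1 without female LeuR 45), 0 to 1 for LeuR (1 without male Control 4 or LeuR 20) and 1 to 5 for ValR (5 without female ValR 36, 2 without male Control 4). The share of genes called in those fits was 2.09 to 4.11% in the IleR interaction, 2.65% and 0.312% in that of LeuR, then 10.9% and 6.71% in that of ValR. Shares called in males ran from 0 (without any Control library) to 8 (without LeuR 21), and were 3 without most other restricted libraries. The 0 follows from the smallest p that 10 against 3 libraries can give, 0.00699, and says nothing about stability.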
